A study of Homo sapiens with 9 samples.

Results

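The comparison described here is that of miRNAs retained by a PD-L1 3'UTR bait with miRNAs retained by an MS2 control bait, and it uses 6 of the 9 small RNA libraries of the series. All were made from ES-2 cells, an established ovarian cancer derived cell line of WT genotype that was left untreated, and ES-2 was the sole line used, so no other line or tumour is represented. In miTRAP, an in vitro transcribed bait RNA with MS2 loops is fixed to amylose resin through a fusion of maltose-binding protein and the MS2-binding protein, cell extract is passed over it, and the small RNAs held back are eluted and sequenced. The PD-L1 3'UTR group (3 libraries) had the 3'UTR in its bait, the MS2 control group (3 libraries) had the loops alone, and 3 input libraries of untrapped extract entered the fit and are quoted in a few places as background. Per the study's methods, the bait amounts also differed between the traps, so bait sequence and bait amount cannot be told apart. The study describes its experiments in general as biologically replicated, but neither it nor the labels say whether these libraries came from separate cultures, and p-values then measure the spread between these libraries, which may be technical.

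PD-L1, the product of CD274 (gene ID 29126, chr9:5450542-5470554, GRCh38.p14), is the checkpoint ligand through which tumour cells restrain T cells, and its mRNA has a long 3'UTR. An miRNA is loaded into an Argonaute protein and finds its targets mainly through its seed, bases 2 to 8 from the 5′ end, which pair with a complementary site in a 3'UTR. Members of one seed family can thus bind the same sites, even when they are transcribed from different chromosomes.

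The miRNAs on which the comparison turned are given as mature sequences from RefSeq (GRCh38.p14), 5′ to 3′, with the seed in capitals. The 6 members of the miR-17 seed family are shown first, because all of them were among the 12 largest rises by the rule given under processing. They share the seed and differ in the 3′ part.
miR-17-5p: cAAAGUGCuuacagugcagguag
miR-20a-5p: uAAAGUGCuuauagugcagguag
miR-106a-5p: aAAAGUGCuuacagugcagguag
miR-106b-5p: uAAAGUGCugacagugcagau
miR-93-5p: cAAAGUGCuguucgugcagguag
miR-20b-5p: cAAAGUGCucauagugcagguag
The next were also called higher and have other seeds. They include members of the miR-15/16, miR-130 and miR-23 families, and a pair of the miR-148 family with a shared seed. Of that pair, miR-148a-3p was high in PD-L1 3'UTR replicate 1 alone, and its call was lost without that library (log2 4.45 and 0.04).
miR-15b-5p: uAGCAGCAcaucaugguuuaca
miR-16-5p: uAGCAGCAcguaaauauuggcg
miR-454-3p: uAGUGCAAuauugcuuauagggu
miR-148a-3p: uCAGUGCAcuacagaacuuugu
miR-152-3p: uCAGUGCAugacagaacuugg
miR-140-5p: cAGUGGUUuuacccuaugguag
miR-23a-3p: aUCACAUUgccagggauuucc
miR-190a-5p: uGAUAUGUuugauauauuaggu
miR-374a-3p: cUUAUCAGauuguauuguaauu
The miRNAs with a larger share in the control libraries are shown to let their 5′ parts be compared with those of the risers.
let-7i-5p: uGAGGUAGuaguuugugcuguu
let-7a-5p: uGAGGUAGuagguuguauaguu
let-7d-5p: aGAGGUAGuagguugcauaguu
let-7g-5p: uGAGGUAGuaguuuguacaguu
miR-423-5p: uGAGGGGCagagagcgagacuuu
miR-92b-5p: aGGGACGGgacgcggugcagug
miR-92a-1-5p: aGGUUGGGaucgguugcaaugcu
miR-4488: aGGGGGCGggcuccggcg
miR-1908-5p: cGGCGGGGacggcgauugguc
miR-760: cGGCUCUGggucugugggga
miR-125b-1-3p: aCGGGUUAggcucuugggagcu
miR-3689f: uGUGAUAUcgugcuuccuggga
The last are relatives with identical seeds whose members were called in opposite directions.
miR-26a-5p: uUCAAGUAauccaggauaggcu
miR-26b-5p: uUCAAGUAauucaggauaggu
miR-27a-3p: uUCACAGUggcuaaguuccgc
miR-27b-3p: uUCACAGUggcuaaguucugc

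Sites for some of these seeds stand in the annotated CD274 3'UTR (transcript CD274-202, 2692 bases), given here with 8 bases on each side and the matched letters in capitals. Positions are counted from the first base of the 3'UTR. The study's list of cloning oligonucleotides was not used here, so how much of this 3'UTR the bait carried is not given.
miR-17 seed family 8mer, bases 2496 to 2503: tttgtaagGCACTTTAtccctttt
miR-148 family 8mer, bases 1935 to 1942: ctccagggTGCACTGAgtcaatct
miR-140-5p 8mer, bases 848 to 855: gttgtgatAACCACTAttatttta
miR-876-3p 8mer, bases 1849 to 1856: atttagacAACCACCAtttgttaa
miR-15/16 family 7mer-m8, bases 567 to 573: actaaactTGCTGCTtaatgatt

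The 3 MS2 control libraries held 1156261 to 2236535 miRNA counts and the 3 PD-L1 3'UTR libraries 672824 to 1237652. At these depths a count of 3, taken as the floor, was worth 1.19 to 4.03 CPM, the unit used throughout, which is a TMM-scaled share of a library and not an absolute amount of RNA. Of 2652 miRNA names, 408 passed the filter on low counts and were tested. PD-L1 3'UTR replicate 1 stood apart in a small set of miRNAs of other tissues. The summed CPM of 3 muscle markers, of which 1 passed the filter, was 1828 in that library, against 28.3 to 131 in the other trapped libraries. That of 7 blood markers (3 passed) was 1504 against 318 to 588, that of the liver marker miR-122-5p was 160 against 0 to 50.3, and that of 5 epithelial miR-200 markers (2 passed, and miR-429 was at 0 counts in each library) was 236 against 37 to 78.1. Not each marker followed its sum. miR-200c-3p had 60 counts in that library and 77, 93 and 67 in MS2 control replicates 1, 2 and 3, and the blood marker miR-144-3p had 0 there. The 2 brain markers (1 passed) summed to 382 to 645 with the 3'UTR bait and 78.8 to 135 with the control.

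The 3'UTR bait retained a different set of miRNAs from the loops alone, with change in both directions. In the PD-L1 3'UTR libraries 128 of the 408 miRNAs were higher than in the MS2 control (31.4%) and 117 were lower (28.7%), at a threshold of 0.05 on p adjusted by Benjamini-Hochberg (quasi-likelihood F test of edgeR), so 60.0% were called in either direction. Rises of at least 2-fold were called for 105 miRNAs (25.7%) and falls of that size for 100 (24.5%). The libraries of the traps did not overlap for 133 miRNAs that were higher (32.6%) and 135 that were lower (33.1%). The log2 fold changes had a median of 0.02 and quartiles of -1.12 and 1.32. TMM scaling centres the fold changes, so the near balance of rises and falls cannot show whether one bait retained more miRNA in total. Called changes of at least 4-fold numbered 67 rises and 64 falls. In 11 of the called rises and 14 of the called falls the trap with less had no more than 3 counts in any library, so their fitted folds depend on the model's prior count.

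**Figure D1:**
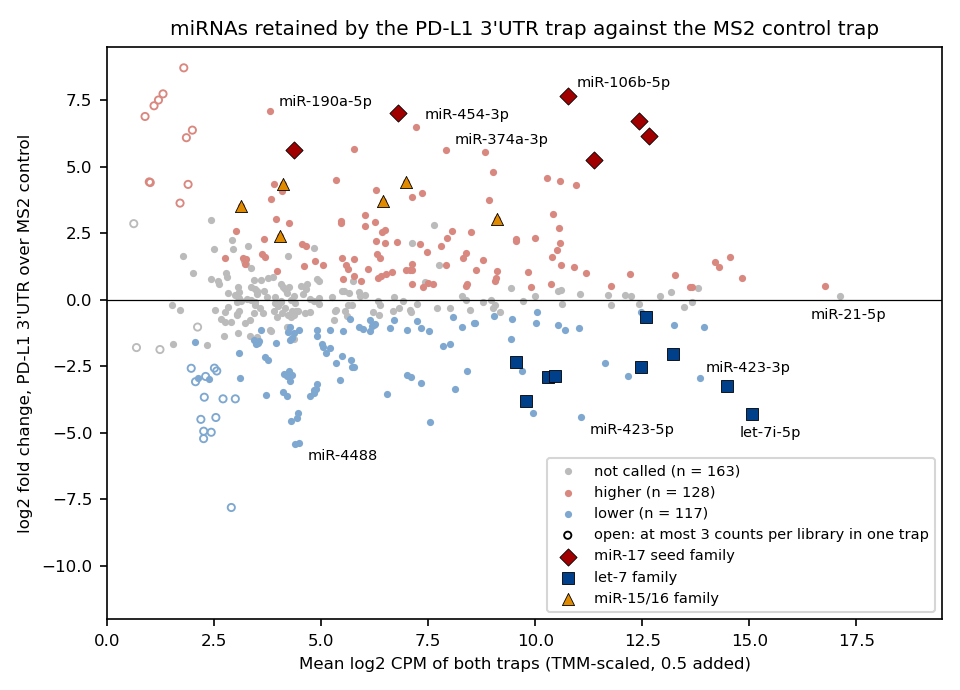
Mean level of each of the 408 miRNAs over both traps (x axis, log2 CPM) against its log2 fold change, PD-L1 3'UTR over MS2 control (y axis); points are miRNAs coloured by call, and open points had at most the floor of 3 counts per library in one trap, where the fitted fold is not reliable. Members of the miR-17 seed family lie at 5.26 to 7.67, those of the let-7 family at -4.31 to -0.63, and miR-21-5p is near 0 at the highest level.

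By content, the called miRNAs made up most of both traps. Those that were higher held 64.0% ± 1.64 of the counts of the PD-L1 3'UTR libraries (SD, n = 3) and 24.4% ± 1.47 of the MS2 control libraries, against 33.8% ± 0.46 in the input. Those that were lower held 7.94% ± 0.63 of the PD-L1 3'UTR counts and 48.9% ± 1.53 of the control counts. Since the call chose these miRNAs, the shares describe their weight and are no further evidence.

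The miR-17 seed family, products of 3 related clusters that promote cell cycle entry and are often raised in tumours, dominated the rises. All 6 members were higher and the libraries of the traps overlapped for none. The most abundant, miR-17-5p, was at 46343, 63812 and 58031 CPM in PD-L1 3'UTR replicates 1, 2 and 3 and at 469, 566 and 571 CPM in the control replicates. Each 3'UTR library thus lay far above each control library, a 105-fold difference (log2 6.71 ± 0.19 SE, adjusted p = 1.88e-09, edgeR). miR-20a-5p, from the same cluster, had 45913, 61908 and 55655 CPM against 662, 901 and 732 CPM (log2 6.15 ± 0.21). The largest rise of the family was that of miR-106b-5p, with 22372, 28815 and 23581 CPM against 125, 119 and 123 CPM (log2 7.67 ± 0.25). Its 3 control values lay within a few CPM of each other. Of the remaining members, miR-106a-5p rose by log2 7.01, miR-20b-5p by 5.64 and miR-93-5p by 5.26. miR-20b-5p was the rarest, with 2.59, 1.19 and 4.54 CPM in the control, which is close to the floor. Reads of miR-17-5p, miR-106a-5p, miR-20a-5p and miR-20b-5p, whose sequences nearly coincide, may have been shared between names, so the split among them is uncertain.

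In sum, the 6 members held 153190.0 CPM of the PD-L1 3'UTR libraries on average and 1862 CPM of the control. Among the input libraries miR-20a-5p averaged 9672 CPM and miR-17-5p 2199.9 CPM, whereas both had similar levels in the 3'UTR trap. The family was chosen by the study on these libraries, so its direction is not independent evidence.

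Both tested members of the miR-18 family, whose seed resembles that of miR-17 without being identical, were also higher. miR-18a-5p, encoded beside miR-17, rose from 42.7, 37.7 and 42.4 CPM to 568, 683 and 715 CPM (95% interval 3.62 to 4.39 on the log2 scale). miR-18b-5p had no count in any control library and 10.6, 8.05 and 7.26 CPM in the 3'UTR libraries, at least 4.80-fold higher when the floor of 3 counts per library is put in place of 0. The median of this pair was log2 5.65 from the fit and 3.13 with miR-18b-5p at that bound. The differences between the 2 families were not tested.

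The miR-15/16 family, known for restraining the cell cycle and repressing BCL2, was the next large group to rise as a whole, with 6 of 6 members higher and a median log2 fold change of 3.61, beside 0.02 for all 408. miR-16-5p, its most abundant member, had 1280.0, 1477 and 1975 CPM in the 3'UTR libraries and 166, 169 and 236 CPM in the control (log2 3.05 ± 0.22). miR-15b-5p was at 499, 588 and 669.7 CPM against 11.0, 32.1 and 37.8 CPM. It had the largest rise of the family (log2 4.44 ± 0.38), and miR-195-5p had the smallest (log2 2.40 ± 0.51). No library of one trap overlapped the other for these members. The family summed to 1464 CPM in the input, 254 CPM in the control and 2604 CPM with the 3'UTR bait. The related miR-103a-3p and miR-107, whose seed overlaps that of miR-16, rose by log2 1.03 and 1.16. Their sum was 7071 CPM in the input, 687 CPM in the control and 1408 CPM with the 3'UTR bait, so both traps lay below the input.

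In the miR-130 family, which takes in miR-301 and miR-454, 4 of 5 members were higher, with a median of 3.17. miR-454-3p rose from 10.3, 15.9 and 20.4 CPM to 1292, 1258 and 1637 CPM, an 89.9-fold change (adjusted p = 1.11e-08, edgeR). miR-301a-3p and miR-130b-3p rose by log2 4.07 and 3.17, whereas miR-301b-3p, at under 15 CPM in each trapped library, gave 1.02 ± 0.87 and did not pass the test. The miR-130 family summed to 250 CPM in the input, 69.5 CPM in the control and 1832 CPM with the 3'UTR bait. In the miR-23 family both members were higher, and miR-23a-3p reached 5642, 5588 and 6850.2 CPM from 281, 243 and 232 CPM (log2 4.58 ± 0.16). This family was at 4815 CPM in the input, 288 CPM in the control and 6233 CPM with the 3'UTR bait. Its control level thus lay far below the input, and its 3'UTR level was nearer to it. The miR-181 family, with roles in lymphocyte development, rose in 3 of 3 tested members (median 1.89), and the miR-30 family in 4 of 5. Summed CPM in the input, control and 3'UTR trap were 4376, 1233 and 5126 for miR-181 and 51093, 32872 and 68681 for miR-30. miR-30a-5p, one of the 5 most abundant miRNAs of the 3'UTR trap, had 38384, 43497 and 43630.4 CPM against 12646, 15452 and 13333 CPM, while miR-30c-5p had a log2 fold change of 0.15 (95% interval -0.17 to 0.46). The paired miR-146a-5p and miR-146b-5p, which dampen innate immune signalling, rose by log2 2.19 and 2.28.

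Several large rises were of miRNAs outside these families. miR-190a-5p was at 144, 162 and 151.6 CPM with the 3'UTR bait and at 0, 2.38 and 0 CPM with the control, where 2 libraries had none. Its fitted log2 fold change of 7.11 ± 0.61 rests on the few control counts. miR-140-5p, a cartilage miRNA, was at 2495, 2675 and 2947 CPM against 90.5, 104 and 99.1 CPM (log2 4.79 ± 0.15), and its libraries were tightly grouped in both traps. miR-374a-3p had 1421, 1882 and 1823 CPM against 23.3, 51.2 and 27.2 CPM (log2 5.63 ± 0.33). miR-542-3p rose by log2 5.66 ± 0.34.

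**Figure D2:**
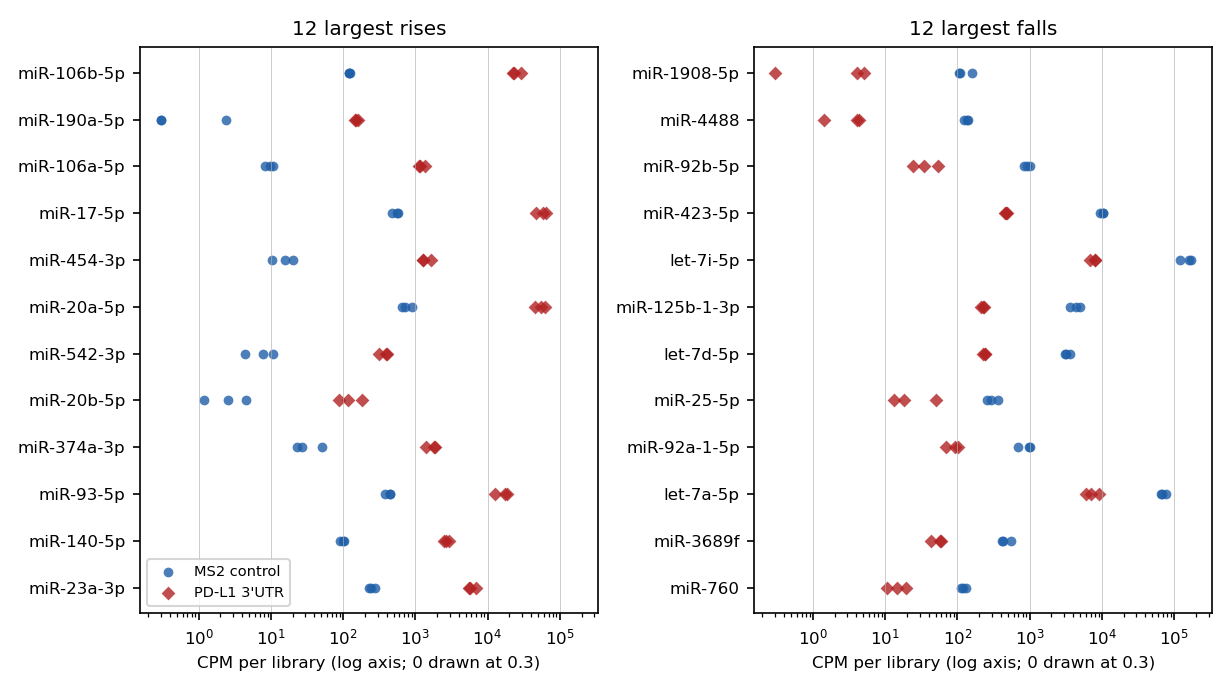
CPM in each of the 3 MS2 control (circles) and 3 PD-L1 3'UTR libraries (diamonds) on a log axis, for the 12 largest rises (left) and 12 largest falls (right) among called miRNAs with non-overlapping libraries and a mean of at least 100 CPM in the higher trap; 0 is drawn at 0.3. miR-106b-5p averages 122 CPM in the control and 24922 CPM with the 3'UTR bait, and let-7i-5p 151746 CPM and 7668 CPM.

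On the other side, the let-7 family, tumour suppressor miRNAs that repress RAS genes and HMGA2, fell as a whole. All 9 members were lower (28.7% of all miRNAs were), with a median log2 fold change of -2.88. let-7i-5p was the most abundant miRNA of the control trap, at 121886, 160885 and 172468 CPM in its 3 replicates, and it was at 8025, 6897 and 8082 CPM with the 3'UTR bait. That is a 19.8-fold lower level (log2 -4.31 ± 0.19, adjusted p = 1.79e-08, edgeR), with no overlap of libraries. let-7a-5p went from 76430.4, 67399.7 and 64926 CPM in the control to 7037, 6092 and 9171 CPM (log2 -3.23 ± 0.22). let-7d-5p changed by log2 -3.80 ± 0.19, and let-7g-5p, with 6283, 8120.3 and 8637 CPM against 5331, 4097 and 5462 CPM, had the smallest fall (-0.63 ± 0.19). The let-7g-5p call was lost when MS2 control replicate 3 (log2 -0.57) or PD-L1 3'UTR replicate 2 (-0.53) was left out. Summed over the family, 274050.0 CPM in the control stood against 28689.7 CPM with the 3'UTR bait. Of 9 tested passenger arms, the opposite strands of the same hairpins, 0 were higher and 2 were lower by the same edgeR test (let-7a-3p log2 -0.87 and let-7d-3p -0.86), with a median of 0.07. These 2 were the most abundant of the passenger arms, whose sum was 1951 to 2219.7 CPM in the control libraries and 1102 to 1355 CPM with the 3'UTR bait. The difference between the guide and passenger arms was not tested.

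The seed letters of let-7 overlap those of miR-196, and both members of the miR-196 family, HOX cluster miRNAs, were also lower (miR-196a-5p log2 -2.52, miR-196b-5p -1.15). The miR-3689 miRNAs, which lie together at chr9:134849302-134850804 (GRCh38.p14), were lower in 7 of 7 cases. The most abundant, miR-3689f, had 434, 559.9 and 419 CPM in the control and 60.2, 42.9 and 58.0 CPM with the 3'UTR bait (log2 -3.12 ± 0.23). 3 of the 7 had no more than 3 counts in any 3'UTR library, and the median of the 7 was -3.36 from the fit and -3.12 with those at the floor. Near-identical sequences make the split of reads within this group uncertain as well. In the miR-320 family 3 of 4 tested members were lower, led by miR-320a-3p (log2 -2.37 ± 0.12), while miR-320d gave -0.48 and did not pass.

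The other large falls included rare miRNAs and well covered ones. miR-1908-5p had 159.7, 110.2 and 106 CPM in the control and 0, 4.02 and 5.08 CPM with the 3'UTR bait, and miR-4488 had 138, 138 and 124 CPM and 1.42, 4.02 and 4.35 CPM. In both, the 3'UTR libraries held only a few counts, so the fitted folds (log2 -5.42 and -5.38) are imprecise. miR-423-5p, better covered, fell 21.3-fold, from 10225, 10279 and 9401 CPM to 457, 482 and 466 CPM. Its opposite arm, miR-423-3p, was among the 5 most abundant miRNAs of the control, with 59749.9, 38184 and 23594 CPM against 4243, 5976 and 5622 CPM (log2 -2.94 ± 0.29). Here the control libraries differed among themselves, but each was above every 3'UTR library. miR-125b-1-3p, a passenger strand, fell 19.3-fold, whereas its guide strand miR-125b-5p had log2 0.49 in the other direction, a call that was lost in 8 alternatives, among them leaving out MS2 control replicate 2 (0.32).

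**Figure D3:**
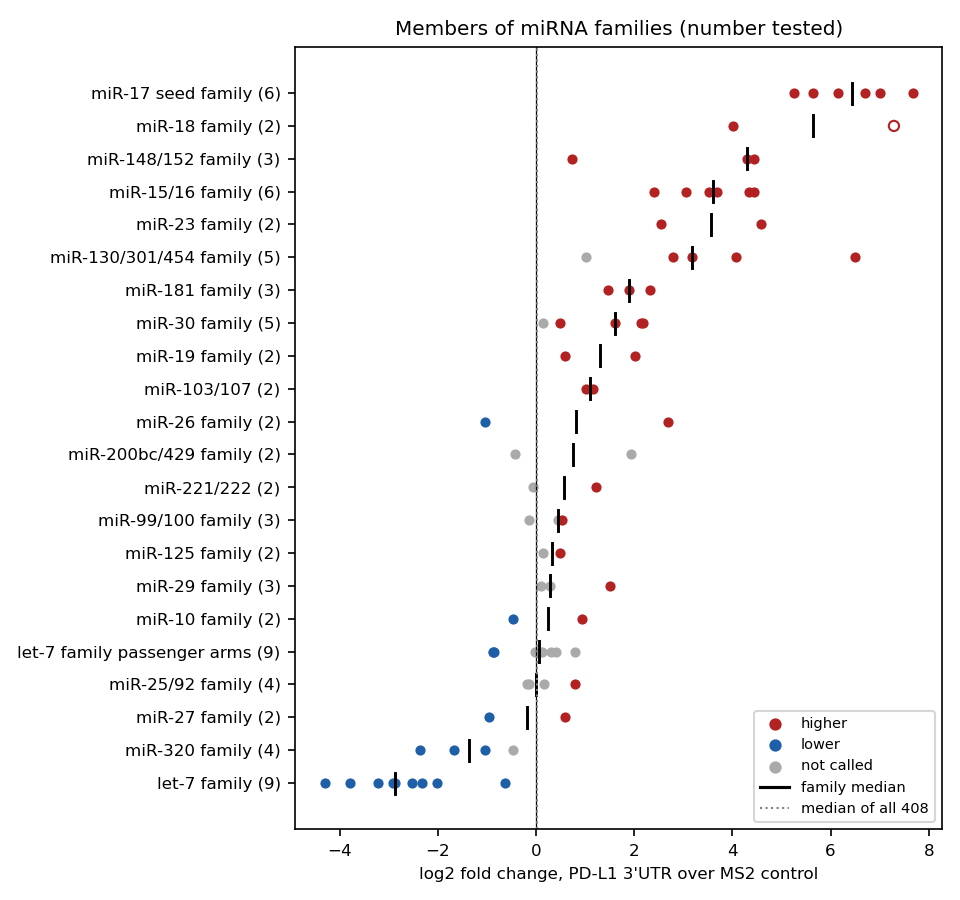
Log2 fold change (x axis, PD-L1 3'UTR over MS2 control) of each tested member of the listed miRNA families with at least 2 tested members; points are miRNAs coloured by call (open where one trap had at most the floor of 3 counts per library), and the bar is the family median. The miR-17 seed family has all 6 members above 5, and the let-7 family has all 9 members below 0.

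The most abundant miRNA of the 3'UTR trap did not differ between the baits beyond its spread. miR-21-5p, an oncogenic miRNA, was at 149667, 151169 and 149311 CPM with the 3'UTR bait and at 95651, 154634 and 156597 CPM with the control (log2 0.15, 95% interval -0.23 to 0.52), and control replicate 1 was the low one. miR-100-5p, the second most abundant there, was 1.44-fold higher with non-overlapping libraries, at 131214, 135085 and 136442 CPM against 96685, 89565 and 93499.8 CPM. For miR-221-3p the interval was -0.36 to 0.21, for miR-29a-3p -0.07 to 0.63, for miR-99a-5p 0.04 to 0.84 and for miR-151a-3p -0.50 to -0.03, all on the log2 scale and none of them called. The miR-221 partner miR-222-3p, in contrast, rose by log2 1.22 ± 0.17. Whether the members of this pair differed from each other was not tested.

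An identical seed did not always go with the same call. Among 371 tested miRNAs with a RefSeq mature sequence there were 304 seeds, 36 of them shared by at least 2 tested miRNAs, and in 2 of these the members were called in opposite directions. miR-26b-5p was at 3972, 3894 and 3634 CPM against 463, 632 and 694 CPM in the control (log2 2.68 ± 0.16). Its relative miR-26a-5p was at 11024, 10521 and 11567 CPM against 19276, 24914 and 23733 CPM (log2 -1.04 ± 0.12). The libraries did not overlap for either, in opposite directions, and the sequences above differ only outside the seed. Likewise miR-27b-3p had log2 0.60 ± 0.15 and miR-27a-3p -0.95 ± 0.16. The miR-10 pair, listed as a family, could not enter this count, because miR-10b-5p had no RefSeq mature sequence here. Its members were also called in opposite directions, miR-10a-5p at 0.94 and miR-10b-5p at -0.46.

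The listed miRNAs described as PD-L1 regulators in general knowledge were mostly on the 3'UTR side. Of 19 listed, 13 were tested. By edgeR 11 were higher (84.6%, beside 31.4% of all 408) and 0 were lower (28.7% of all 408 were). Their median log2 fold change was 2.40 beside 0.02 for all miRNAs. Of the 11, 7 belong to the miR-15/16 or miR-17 families already described, and the study chose the miR-17 family on these libraries. miR-155-5p, an miRNA of activated immune cells, was at 22499.6, 33442 and 35866 CPM against 10606, 11758 and 12064 CPM (log2 1.41 ± 0.17). miR-138-5p rose by log2 2.08, miR-142-5p by 1.32 and miR-140-3p by 1.12. The members that did not pass were miR-200b-3p, at 135, 18.8 and 10.2 CPM against 25.2, 15.5 and 2.27 CPM, and miR-200c-3p (log2 -0.42). The miR-34 and miR-141/200a families had no member that passed the filter, so nothing can be said of them here.

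A few rises rested on 1 library. miR-148a-3p was at 20762, 476 and 181 CPM in the PD-L1 3'UTR replicates and at 328, 385 and 266 CPM in the control. miR-143-3p, typical of smooth muscle, was at 9124, 121 and 39.9 CPM against 84.0, 48.8 and 65.8 CPM. In both, replicate 1 alone was high and the other two libraries overlapped the control. Their calls (log2 4.45 and 5.55) were lost without that library, at 0.04 and 0.29. miR-203a-3p, an epithelial miRNA, and miR-126-3p, an endothelial one, turned sign without it, from 4.51 to -0.14 and from 2.92 to -0.17, and miR-1-3p of muscle (1433, 101 and 25.4 CPM) was not called to begin with. The summed muscle, blood, liver and epithelial markers described above stood out in the same library, though not each single marker did. Their part in these values was not tested. The median of the miR-148 family, which takes in miR-152, fell from 4.30 with 3 of 3 members higher to 0.78 with 2 of 3. The members that did not depend on replicate 1 were miR-148b-3p, at 7509, 10014 and 8866 CPM against 328, 447 and 567 CPM (log2 4.30 ± 0.21), and miR-152-3p (log2 0.72 ± 0.13). Without that library 118 miRNAs were higher and 134 lower of 469 tested.

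The 2 arms of a hairpin are cut from one precursor, and one of them is usually kept as the guide. For 101 hairpins both arms were tested, and their log2 fold changes followed each other little across hairpins (Spearman rho = 0.135, a description over hairpins that are not replicates). Both arms were higher in 16 hairpins and both lower in 8, one arm alone was called in 54, and in 14 the arms were called in opposite directions, with the 5p arm higher in 9 of them and the 3p arm in 5. Over all 408 miRNAs 31.4% were higher and 28.7% lower, and whether these pair counts depart from those shares was not tested. The median gap between the arms was 1.82 on the log2 scale.

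In miR-424 the arms were at like levels with the 3'UTR bait and parted in the control. miR-424-5p, the miR-15/16 family member, was at 255, 318 and 351 CPM against 21.3, 19.4 and 31.0 CPM. miR-424-3p was at 345, 346 and 289.5 CPM against 2088, 1969.5 and 2238 CPM, so the arms differed in sign (log2 3.70 and -2.68) with no overlap of libraries in either. miR-454-3p, described above, rose while miR-454-5p fell (log2 -1.35 ± 0.25), and miR-23a-3p rose while miR-23a-5p fell (-1.99 ± 0.30). For miR-106b the 3p arm was slightly lower (-0.47 ± 0.13) against the large rise of the 5p arm, and for miR-361 the 5p arm had 1.11 and the 3p arm -2.89. By contrast miR-17 and miR-20a rose in both arms, and miR-20a-3p reached log2 4.35 ± 0.38.

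**Figure D4:**
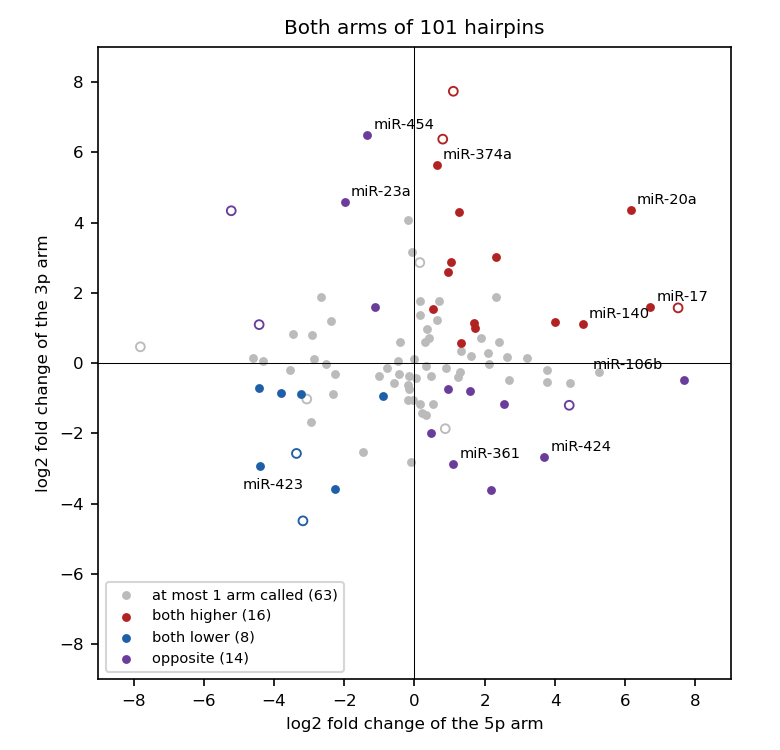
Log2 fold change of the 5p arm (x axis) against that of the 3p arm (y axis), PD-L1 3'UTR over MS2 control, for 101 hairpins with both arms tested; points are hairpins coloured by the calls of their arms, and open points have an arm at or under the floor of 3 counts per library in one trap. The arms of miR-424, miR-106b, miR-23a and miR-454 lie in opposite directions, and those of miR-17 and miR-20a are both above 0.

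Members of one genomic cluster, transcribed together, were not always called in the same direction. Loci of one name were summed. The values of miR-19b-3p and miR-92a-3p below thus also take in chrX:134169544-134170266, and those of miR-24-3p chr9:95085265-95086085. From the cluster of miR-17 and miR-92a (chr13:91350618-91351382), 11 mature miRNAs were tested. Of these 9 were higher and 1 was lower, beside 31.4% and 28.7% of all miRNAs. The lower one was miR-92a-1-5p, at 682, 1005 and 971 CPM in the control and 69.4, 91.2 and 102 CPM with the 3'UTR bait (log2 -3.34 ± 0.27). Its partner miR-92a-3p, which has another seed than miR-17, rose by 0.80 ± 0.13. Within the cluster, the members with the miR-17 seed had 6.15 and 6.71, and the miR-19 members, the main oncogenic part of the cluster, 0.60 and 2.02. At chr7:100093571-100094063, miR-106b-5p and miR-93-5p rose, while miR-25-5p fell (log2 -3.53 ± 0.45) and miR-25-3p gave -0.19 (95% interval -0.50 to 0.11). From chr19:13836289-13836651, miR-23a-3p rose by 4.58, miR-27a-3p fell by 0.95 and miR-24-3p gave 0.19 (95% interval -0.07 to 0.45). In the imprinted region at chr14:101026834-101054337, 0 of 7 tested miRNAs were called by edgeR (60.0% of all were), with a median of 1.29 and wide spreads between libraries.

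As to sites in the CD274 3'UTR, a seed match was read as 8mer (bases 2 to 8 and an A opposite base 1), 7mer-m8 (bases 2 to 8) or 7mer-A1 (bases 2 to 7 and the A). Of 371 miRNAs with a sequence, 33 (23 seeds) had an 8mer, and 17 of these were higher (51.5%) and 4 lower. With a 7mer-m8 at best, 17 of 41 were higher and 7 lower. With a 7mer-A1, 10 of 30 were higher and 11 lower, and with no match 72 of 267 were higher (27.0%) and 86 lower (32.2%). The median log2 fold changes of these classes were 0.72, 0.53, -0.11 and -0.06, and without PD-L1 3'UTR replicate 1 they were 0.72, 0.20, -0.07 and -0.16. The miR-17 seed family weighed on this, since 11 of the other 27 miRNAs with an 8mer were higher (40.7%, beside 31.4% of all), with a median of 0.19, or 0.085 without that library. With each distinct seed counted once, the medians were 0.21 for 8mers and -0.07 for no match. miRNAs of one seed share their sites, and the letters say nothing about whether a site was bound.

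**Figure D5:**
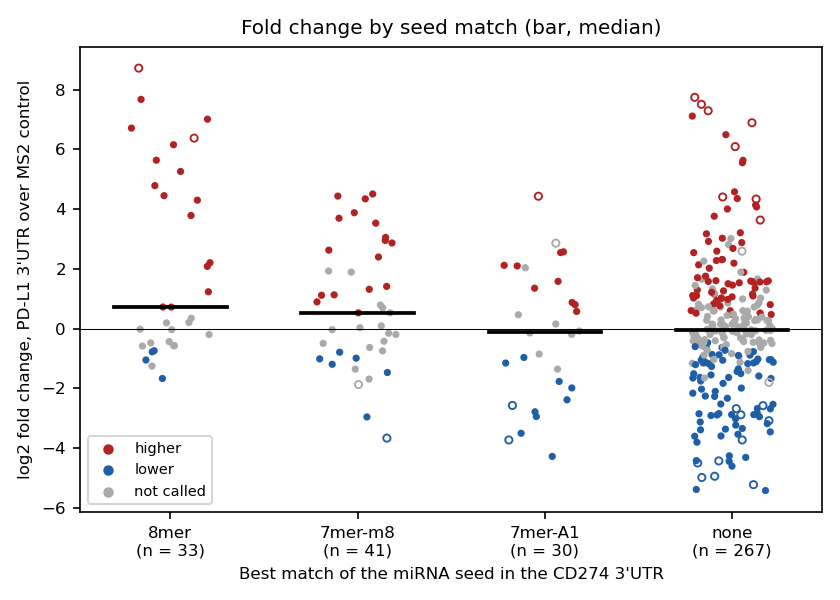
Log2 fold change (y axis, PD-L1 3'UTR over MS2 control) of 371 miRNAs by the best match of their seed in the CD274 3'UTR (x axis); points are miRNAs coloured by call (open where one trap had at most the floor of 3 counts per library), spread sideways at random, and the bar is the median of the class. The classes overlap over most of their range, with medians of 0.72 for 8mers and -0.06 for no match.

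Rises with an 8mer included, beside the miR-17 seed family, miR-140-5p, miR-148b-3p, miR-324-5p (log2 3.79), miR-138-5p and miR-450b-5p (2.21). miR-876-3p, which had no count in any control library and 14.2, 22.8 and 33.4 CPM with the 3'UTR bait, was at least 13.0-fold higher against the floor of 3 counts per library. Its seed has the 8mer shown above and a further 7mer-m8 at bases 831 to 837. The 8mer of the miR-17 seed occurs in 7.36% of 4580 human 3'UTRs at least as long, each read over its first 2692 bases, that of miR-140-5p in 3.41% and that of miR-876-3p in 4.78%. The miR-15/16 members have the single 7mer-m8 shown above, and miR-135b-5p, which rose from 24.6, 36.9 and 46.2 CPM to 619, 459 and 504 CPM, also has a 7mer-m8.

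Matches and calls did not go together throughout. miR-190a-5p, miR-454-3p, miR-374a-3p and miR-23a-3p, all among the 12 largest rises, had no match of any class in this 3'UTR, and miR-320b (log2 -1.67), miR-320c (-1.05), miR-28-3p (-0.74) and miR-331-5p (-0.77) fell despite an 8mer. The longest stretch of any part of an miRNA complementary to the 3'UTR had a median of 7 bases among risers, fallers and the rest alike. No let-7 seed match was found in these letters.

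The sequences of the 2 sides differed in composition. The median GC content was 43.7% for miRNAs that were higher, 52.2% for those that were lower and 50.0% for the rest. The median G content was 23.3%, 33.3% and 22.7% in the same order, so in G the risers were near the rest. Over the 371 miRNAs the log2 fold change had a Spearman rho of -0.296 with GC content and -0.367 with G content, a description over miRNAs that share families. Of the 105 miRNAs with the lowest GC content 48 were higher (45.7%) and 18 lower (17.1%). Of the 93 with the highest, 9 were higher (9.7%) and 38 lower (40.9%), beside 31.3% and 29.1% of the 371. Median length was 22 bases on each side. The part of base composition in retention was not tested.

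Some short letter strings shared across families were held mostly by risers or mostly by fallers. Of the 221 strings of 5 letters held by at least 10 tested miRNAs, AGUGC was held by 21. Of these 18 were higher and 1 lower (median log2 4.07), beside 31.3% and 29.1% of the 371 with a sequence. It runs through the seeds of the miR-17, miR-130 and miR-148 families, and the miR-148a-3p call rested on PD-L1 3'UTR replicate 1. The 21 have 10 distinct seeds, and with each seed counted once the median was 1.43. Without PD-L1 3'UTR replicate 1, 15 were higher and 1 lower (median 4.13). At the other end, UGAGG was held by 19, of which 0 were higher and 16 lower (median -2.68), 8 of them let-7 family members, and it also opens miR-423-5p. These strings overlap one another and the families above, and were looked at after the fold changes were known.

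miRNAs of high number in the name, which tend to be recent and sparsely supported annotations, lay more on the control side. Among those numbered 3000 and over, 8 of 61 were higher (13.1%) and 28 lower (45.9%). Their median was -1.35, or -1.03 with those at the floor set to their bound. Among those numbered under 1000, 117 of 303 were higher (38.6%) and 69 lower (22.8%), with a median of 0.34. Of all 408, 31.4% were higher and 28.7% lower.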

How the data were processed

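Small RNA of ES-2 miTRAP eluates was sequenced single-end. What the authors deposited is a table of unnormalised counts, which they made with featureCounts on the mature miRNA loci of miRBase. The submitters' processing notes name cutadapt 1.18, Bowtie2 2.2.6, featureCounts 1.6.3 and hg38, and how reads with several loci were assigned is not given in the sources used here. Titles gave each sample its group and replicate number, and descriptions gave it its column. The 2883 locus rows were summed to 2652 names.

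Tests used edgeR 4.0.16 (R 4.3.3). miRNAs kept by filterByExpr (408, holding at least 99.676% of each library's counts) were scaled by TMM and fitted with 3 group means over all 9 libraries. The contrast was tested two-sided with glmQLFTest after glmQLFit, with Benjamini-Hochberg adjustment over the 408 and a threshold of 0.05. The SE is the log2 fold change over the square root of F, and intervals are at 95%. Floors of 3 counts per library, averaged over a group, cover counting error only, since PCR reads are not independent molecules. On simulated data (200 of the 408 miRNAs changed by 2 on the log2 scale, 5 simulations), 88.4% of changes were recovered and 1.89% of calls were false. The simulated counts followed the fitted spread with no library set apart, so these rates do not cover calls that rest on a single library.

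Named miRNAs follow a fixed rule. Among called miRNAs with non-overlapping libraries and at least 100 CPM in the higher trap it takes the 12 largest rises and falls. It adds the 5 most abundant of each trap, the 5 most abundant of those not called with at least 1000 CPM, the 5 with the widest spread within a group, the 6 given by the study, and the highest and lowest of each family. Other miRNAs named with arm pairs, clusters, seed matches or families were picked after their values were seen. The comparison, its members and all lists were chosen with earlier results of these data known. Lists were described by counts and medians, without tests.

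Mature sequences came from RefSeq (GRCh38.p14) for 371 of the 408 miRNAs, and 37 had none in the table used. The CD274 3'UTR was read from GENCODE v44 transcripts lifted to GRCh37, and positions within it are given, not genome coordinates. Clusters join hairpins within 10000 bases. Alternatives were DESeq2 1.42.0, DESeq2 size factors, library totals, a looser and a stricter filter (none, or 10 CPM on average), the trapped libraries alone, separate loci, the replicate number as a block, a 2-fold threshold, and leaving out each library.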

Additional observations from a re-analysis of the deposited data

How the results depend on the processing

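Over DESeq2, other scalings, other filters, the trapped libraries alone and separate loci, the miRNAs that were higher numbered 111 to 178 and those lower 109 to 145, and 118 to 138 and 115 to 134 when 1 library was left out. Of 1386 alternative values for 82 named miRNAs, 1321 kept their direction and side of the threshold, 41 (7 miRNAs) lost it, 22 (5 miRNAs) gained it and 2 changed sign. Leaving out 1 library gave -0.17 to 3.43 for miR-126-3p and -0.14 to 5.04 for miR-203a-3p, the lowest in each case without PD-L1 3'UTR replicate 1. The cause was not tested. The median over all miRNAs tested, 0.02 with every library, ranged from -0.10 without PD-L1 3'UTR replicate 1 to 0.12 without MS2 control replicate 2. miRNAs with any seed match had a median of 0.41, which was 0.72 for 8mers alone, 0.092 with each seed once and 0.22 without PD-L1 3'UTR replicate 1, an alternative chosen after seeing the data. The median GC content of risers was 43.5% at 2-fold or more. With the replicate block 126 miRNAs were higher and 117 lower. Deviations of same-numbered libraries correlated at 0.129, 0.067 and 0.099, so the numbers were not taken to pair the samples, although each library correlated best with its own number, as a hint from the data. Depth limits the rarest miRNAs, for which 3 counts were worth up to 4.03 CPM.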

Other observations

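Values of further clusters follow. From chrX:50003167-50014670, a cluster of the miR-500 and miR-532 hairpins, 2 of 9 tested miRNAs were higher and 3 lower, beside 31.4% and 28.7% of all miRNAs, and the lower ones were all 3p arms (miR-500a-3p log2 -1.20, miR-501-3p -1.43 and miR-502-3p -1.26). The rises, miR-500a-5p and miR-500b-5p, have near-identical sequences and had no more than 3 counts in any control library, so their fitted values are not given. From chr19:51692618-51693327, let-7e-5p was lower (log2 -2.88) while its neighbours miR-99b-5p and miR-125a-5p gave -0.15 (95% interval -0.51 to 0.21) and 0.15 (-0.23 to 0.53). From chr7:129770406-129774988, the sensory organ cluster, miR-182-5p was higher (log2 0.53 ± 0.15) and miR-183-5p lower (-0.96 ± 0.13), both with edgeR and the same adjustment as above.

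miR-9-5p, the brain marker that passed the filter, was at 610.3, 382 and 646 CPM with the 3'UTR bait and 78.9, 116 and 135 CPM with the control, against 225 CPM on average in the input (log2 2.31 ± 0.26 between the traps).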
